A study of Astyanax mexicanus with 6 samples.

Results

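The regions described here are stretches of liver chromatin that were open in fish of both the Tinaja and the Pachon cave and had no peak in Surface fish of Astyanax mexicanus, the Mexican tetra. The 3 deposited lists were joined by merging all peaks that overlap or touch, and a merged region was kept when it lay on 1 of the 25 numbered chromosomes and held at least 1 Tinaja peak, at least 1 Pachon peak and no Surface peak. This gave 7768 of the 75330 chromosomal regions (10.3%). With unplaced scaffolds included the same conditions gave 11715 of 110214 regions, but only the chromosomal ones are described here. The presence and absence of peaks chose these regions, so their number and their lack of Surface peaks describe the choice and are not findings.

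The groups were livers of Tinaja cave fish, of Pachon cave fish and of Surface fish, each with 2 samples by the labels, 6 in all. All groups went through the same nuclear preparation and transposition, and all 6 samples were sequenced on the same 2 flow cells by their labels. The sources used here give no age, sex or rearing, and they do not say whether samples came from separate fish. Each form had 1 peak list, recorded under its replicate 1, so there is no spread between replicates, no difference between forms or classes could be tested, and all values are descriptions of these lists.

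In ATAC-seq the transposase Tn5 cuts DNA that is not packed away in nucleosomes, so a peak marks a promoter, an enhancer or another stretch that proteins can reach. Promoters active in a tissue tend to be open wherever that tissue is sampled, whereas distal elements such as enhancers vary more between individuals and populations. Cave forms of this species have lost eyes and pigment and live where food is scarce. They are known for large fat stores, fatty livers and resistance to starvation, which makes the liver a tissue of interest in them.

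On chromosomes there were 58238 peaks over 37.2 Mb in Tinaja, 50115 over 31.5 Mb in Pachon and 50924 over 34.5 Mb in Surface. Median peak width there was 501 bp in Tinaja, 498 bp in Pachon and 539 bp in Surface, and the narrowest peaks were 226, 221 and 212 bp wide in the same order. The lists carry no read counts or peak scores, and depth is unknown. A list from a deeper library can differ in its number of peaks and in their widths, and with 1 list per form depth and form cannot be told apart. The lists name no genes, and no gene annotation of their build was used, so neither the liver identity of the samples nor the genes near these regions were checked.

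The both-cave regions held 7822 Tinaja peaks, 13.4% of that list, and 7878 Pachon peaks, 15.7% of that list. These peaks covered 4.35 Mb in Tinaja and 3.84 Mb in Pachon. Nearly all the regions were simple pairs: 7611 of them (98.0%) held exactly 1 peak of each cave. In 101 regions 1 Tinaja peak was joined with 2 Pachon peaks, and in 50 regions 1 Pachon peak with 2 Tinaja peaks. Another 4 regions held 2 peaks of each, and 1 region each held 3 and 4 Pachon peaks with 1 Tinaja peak.

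Most of these regions were narrow, as were those of the other classes held by 2 lists. The median length of a merged region was 520.5 bp for both caves, 496 bp for Tinaja and Surface only and 537 bp for Pachon and Surface only. Regions held by 1 list had medians of 322 to 354 bp, and regions of all 3 forms 789 bp. The median length covered was 446 bp in Tinaja (95% order-statistic interval 441 to 452) and 401 bp in Pachon (395 to 406), where the interval covers variation over regions and not over fish. The length covered ranged from 226 to 5865 bp in Tinaja and from 221 to 5608 bp in Pachon. Taking for each region the lower of both covered lengths, 2689 regions (34.6%) were under 300 bp, close to the narrowest peaks in the lists. By the same measure 2045 of 4914 regions of Tinaja and Surface only and 1145 of 2845 of Pachon and Surface only were under 300 bp. At the other end, 349 regions (4.49%) reached 1000 bp in both caves and 40 reached 2000 bp.

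The 2-list classes can be compared at equal width by asking, of all regions with peaks in a given pair of lists, how many lacked the third list. The classes were defined by these same peaks, so the shares are a description. Of 40397 chromosomal regions with peaks in both caves, 19.2% lacked a Surface peak. Of 37543 regions with Tinaja and Surface peaks, 13.1% lacked Pachon, and of 35474 regions with Pachon and Surface peaks, 8.02% lacked Tinaja.

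In every pair the share fell with width up to 1000 bp, and cave pairs had the highest share in every width bin. Where the lower covered length was under 300 bp, Surface was missing from 40.2% of cave pairs (Wilson 95% interval 39.0 to 41.4, counting error only), Pachon from 33.6% of Tinaja and Surface pairs and Tinaja from 19.5% of Pachon and Surface pairs. From 500 to under 700 bp the shares were 12.1% for cave pairs, 6.20% for Tinaja and Surface and 3.75% for Pachon and Surface. Among regions of at least 1000 bp in both lists of the pair, 349 of 5732 cave pairs lacked Surface (6.09%, interval 5.50 to 6.74). In the same width range 129 of 5674 Tinaja and Surface pairs lacked Pachon (2.27%, interval 1.92 to 2.69) and 101 of 5231 Pachon and Surface pairs lacked Tinaja (1.93%, interval 1.59 to 2.34). No test of these differences was made, since each form has 1 list and the same peaks defined the classes. When peaks counted as shared only with a reciprocal overlap of 50%, the shares at 1000 bp and above were 14.0% for cave pairs, 7.47% for Tinaja and Surface and 5.13% for Pachon and Surface.

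**Figure D1:**
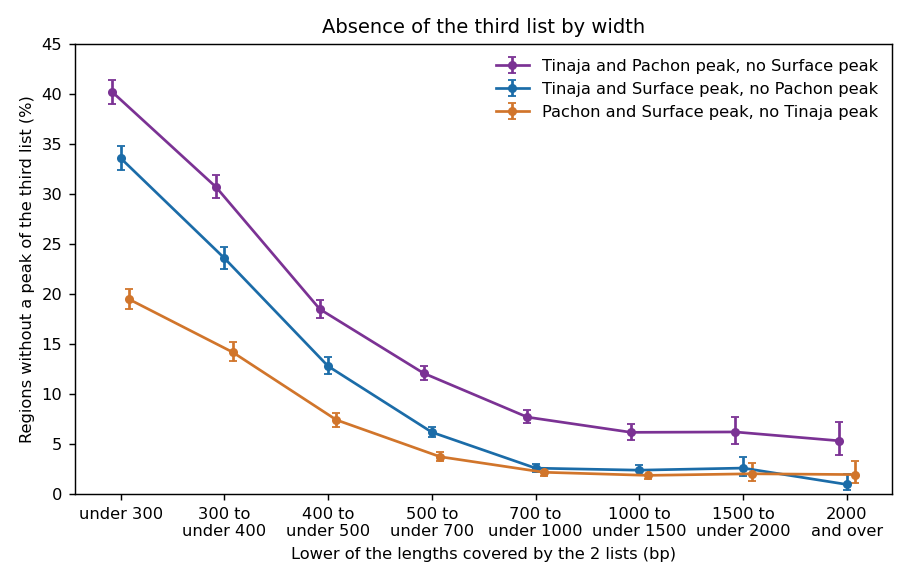
Percentage of regions with peaks in a pair of lists that had no peak of the third list (vertical axis) by the lower of the lengths covered by that pair (horizontal axis, bp). Points are values over chromosomal regions and bars Wilson 95% intervals for counting error; the cave pairs stand highest in every width bin, at 40.2% under 300 bp and 5.35% at 2000 bp and over.

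The widest regions measured several kb in both caves. The 20 with the largest lower covered length had 2491 to 5652 bp covered in Tinaja and 2484 to 5608 bp in Pachon, and they lay on 15 chromosomes. The Tinaja length was the larger in 12 and the Pachon length in 8, and in 4 of them 1 Tinaja peak faced 2 Pachon peaks. Positions are those of the lists, counted from 1, on a build that the sources used here do not name.

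The widest lay on chromosome 2 at positions 18048507 to 18054158, with 5652 bp in Tinaja and 5608 bp in Pachon, and the nearest Surface peak was 12.4 kb away. It was followed by a region of chromosome 10 at 32594068 to 32599325, where a 5258 bp Tinaja peak faced 2 Pachon peaks covering 4445 bp. Between the first and the second of these regions the covered length already dropped by more than 1 kb in Pachon, and from the third on, on chromosome 7 at 26849025 to 26852564, with 3422 bp in Tinaja and 3385 bp in Pachon, the ranks followed each other closely.

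Several of the wide regions stood far from any Surface peak. On chromosome 25 at 30542885 to 30545506, peaks of 2561 bp in Tinaja and 2484 bp in Pachon lay 92.3 kb from the nearest Surface peak. On chromosome 20 at 25907681 to 25910930, peaks of 3250 bp in Tinaja and 2988 bp in Pachon lay 55.2 kb from one and had a both-cave region as neighbour on each side. On chromosome 25 at 37590233 to 37593306, a Tinaja peak of 3074 bp and 2 Pachon peaks covering 2636 bp lay 51.9 kb from one. Of the 20, 11 were over 20 kb from the nearest Surface peak, beside 1771 of all 7768 both-cave regions (22.8%). No such share was taken for wide regions of other classes.

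Among the other distant ones was a region of chromosome 22 at 2477813 to 2480803, with 2838 bp in Tinaja and 2991 bp in Pachon, 42.1 kb from Surface. A region of chromosome 3 at 40270114 to 40273005 had 2764 bp in Tinaja and 2702 bp in Pachon and was 38.9 kb from Surface. A region of chromosome 23 at 8298406 to 8301851 had 2924 bp in Tinaja and 3035 bp in Pachon, 37.7 kb from Surface, and it was 122.6 kb from the nearest region open in all 3 forms. Of these, the region of chromosome 3 had regions of all 3 forms as neighbours on both sides, and that of chromosome 22 had Tinaja-only regions. On chromosome 9 at 17021021 to 17024478, peaks of 3458 bp in Tinaja and 2881 bp in Pachon had regions of Tinaja alone on either side, and the nearest Surface peak was 35.0 kb away. On chromosome 3 at 17657359 to 17661518, the distance was 28.8 kb, and on chromosome 18 at 24984135 to 24987330 it was 25.9 kb.

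Others sat beside Surface peaks without touching them. On chromosome 22 at 10227192 to 10229698, peaks of 2500 bp in Tinaja and 2506 bp in Pachon ended 1.90 kb from a Surface peak. On chromosome 16 at 9935677 to 9939216, a Tinaja peak of 3088 bp and 2 Pachon peaks covering 2683 bp lay 3.04 kb from a Surface peak and 518 bp from a region of all 3 forms. Regions of chromosome 14 at 29237121 to 29240118 (2491 bp in Tinaja, 2904 bp in Pachon) and chromosome 12 at 1603615 to 1606352 (2734 bp in Tinaja, 2730 bp in Pachon) were 3.54 and 4.03 kb from Surface. In these 4 places a wide peak of both caves was absent from a list that held a peak within 5 kb.

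The remaining 5 of the 20, the widest region on chromosome 2 among them, were 9.42 to 13.9 kb from Surface. Chromosome 17 held a pair of them, at 1354440 to 1357710 with 2895 bp in Tinaja and 3271 bp in Pachon, and at 16046053 to 16049175 with 3046 bp in Tinaja and 2852 bp in Pachon. The others lay on chromosome 5 at 22439782 to 22442476 (2615 bp in Tinaja, 2695 bp in Pachon) and on chromosome 16 at 12241333 to 12243944 (2589 bp in Tinaja, 2612 bp in Pachon).

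**Figure D2:**
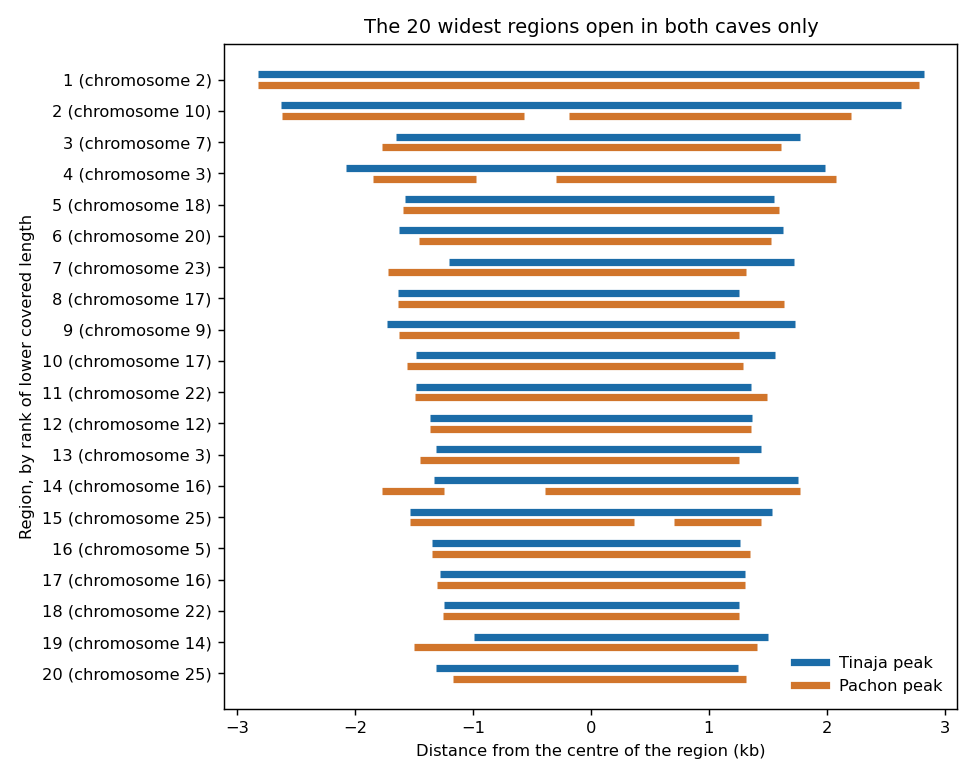
Peaks of Tinaja and Pachon in the 20 widest regions, drawn to scale by distance from the centre of the region in kb (horizontal axis) and ordered by the lower covered length (vertical axis, with the chromosome). Bars are peaks as deposited. In 16 regions there is 1 peak of each cave, with a reciprocal overlap of 82.5% to 99.7%. In the other 4, 1 Tinaja peak faces 2 Pachon peaks.

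Within a region the cave peaks mostly marked the same stretch. With 1 peak of each cave and no Surface peak, the merging itself requires the peaks to overlap or touch, so some agreement is given by the rule. In the 7611 regions with 1 peak of each cave the median overlap was 330 bp, and the overlap was 75.4% of the wider peak at the median. It was at least 50% of each peak in 6412 regions (84.2%) and at least 90% in 1706 (22.4%). The midpoints of the peaks were 48.5 bp apart at the median. Regions of all 3 forms with 1 peak of each cave, which were wider, matched more closely. There the shares were 93.5% and 41.9%, and the midpoints were 35.5 bp apart. The smallest overlap in both-cave regions was 4 bp. In regions of all 3 forms a Surface peak can join the cave peaks, and the smallest overlap there was 0 bp. In 14 both-cave regions both lists gave identical start and end, beside 94 of 31092 regions of all 3 forms. The longest of the 14 was 1534 bp on chromosome 8 at 17876369 to 17877902.

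After that region, the closest matches among peaks of at least 1000 bp in both caves were on chromosome 22, at 10227192 to 10229698 and at 19909619 to 19910650, and on chromosome 12 at 1603615 to 1606352. Each of these had a reciprocal overlap of 99.7%. On chromosome 5 at 38912120 to 38913834 the peaks of 1710 bp in Tinaja and 1709 bp in Pachon overlapped by 99.6%. Their edges differed by a few bases over more than 1 kb.

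Tinaja peaks were somewhat wider than Pachon peaks in the same region. The median width was 442 bp in Tinaja and 396 bp in Pachon in the regions with 1 peak of each. The Tinaja peak was the wider in 4735 regions, the Pachon peak in 2834, and 42 had equal widths, with a median log2 ratio of Tinaja over Pachon of 0.10 (order-statistic interval 0.09 to 0.11). It was 0.06 under a reciprocal overlap of 50% and 0.17 with equal numbers of the widest peaks of each list. The latter setting drops the narrowest Tinaja peaks and no Pachon peak, so the trimming itself favours a higher ratio. Regions open in all 3 forms, with 1 peak of each cave, had medians of 632 bp in Tinaja and 593 bp in Pachon and a median log2 ratio of 0.04. These classes differ in width. Under 300 bp of lower covered length the median log2 ratio was 0.15 in both classes. From 500 to under 700 bp it was 0.09 in both-cave regions and 0.04 in regions of all 3 forms. The Pachon peak lay wholly inside the Tinaja peak in 2841 both-cave regions (37.3%) and the Tinaja peak inside the Pachon peak in 1383 (18.2%). In regions of all 3 forms these shares were 37.2% and 20.4%.

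Large differences in width were uncommon. The Tinaja peak was at least 2-fold wider in 599 both-cave regions (7.87%), beside 4.32% of all chromosomal regions with 1 peak of each cave. The Pachon peak was at least 2-fold wider in 215 (2.82%), beside 1.73%. Both shares were above the background, but both-cave regions were also narrower. Under 300 bp of lower covered length, the Tinaja peak was 2-fold wider in 11.4% of both-cave regions and 11.7% of regions of all 3 forms. From 500 to under 700 bp the shares were 4.89% in both-cave regions and 1.47% in regions of all 3 forms, and from 700 to under 1000 bp 2.73% and 0.726% in the same order.

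The match of the edges followed the same course. The median reciprocal overlap was 67.6% in both-cave regions and 65.6% in regions of all 3 forms under 300 bp. It was 81.2% in both-cave regions and 87.4% in regions of all 3 forms from 500 to under 700 bp, and 87.9% and 94.0% in the same order from 1000 to under 1500 bp. In each width bin from 400 bp on, the median was lower in regions without Surface than in those with it.

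Some pairs were far from equal, and the extremes are named here after their values were seen. On chromosome 13 at 24467077 to 24472941, a Tinaja peak of 5865 bp held a Pachon peak of 266 bp, a log2 ratio of 4.46. On chromosome 8 at 11652608 to 11656099, a Tinaja peak of 365 bp met a Pachon peak of 3278 bp, a log2 ratio of -3.17. By the rule such regions count as shared by both caves although nearly all of their length was open in 1 list.

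**Figure D3:**
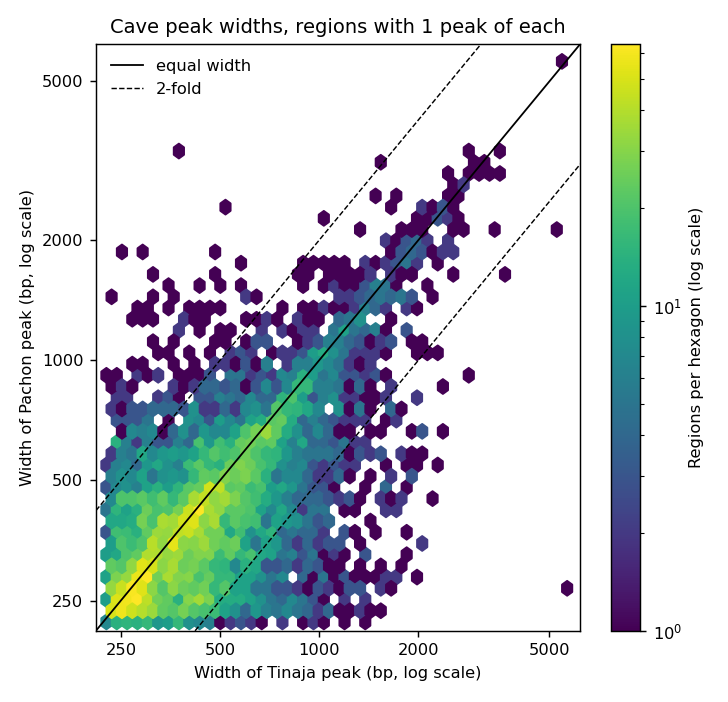
Width of the Tinaja peak (horizontal axis, bp, log scale) against the width of the Pachon peak (vertical axis, bp, log scale) in 7611 both-cave regions with 1 peak of each; colour gives the number of regions per hexagon, the solid line equal widths and dashed lines a 2-fold difference. Most regions lie near equal width, with 599 at or beyond the dashed line on the Tinaja side and 215 on the Pachon side.

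The 5 regions with the most peaks held 4 or 5 in all. On chromosome 6 at 44658793 to 44661400, 1 Tinaja peak of 2586 bp met 4 Pachon peaks covering 1622 bp, and a Surface peak lay 526 bp away. On chromosome 20 at 15280357 to 15282319, 1 Tinaja peak of 1952 bp met 3 Pachon peaks covering 1053 bp. Of the 4 regions with 2 peaks of each list, the 3 with the largest lower covered length lay on chromosome 18 at 3521507 to 3523187, chromosome 15 at 1957220 to 1958806 and chromosome 16 at 13020122 to 13021620. These 3 covered 1204 to 1420 bp in Tinaja and 1033 to 1356 bp in Pachon.

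Few both-cave regions lay close beside a Surface peak. Each class held by exactly 2 lists was chosen for lacking the third, so distances to the missing list are descriptions and not findings. The nearest Surface peak was 7.10 kb from a both-cave region at the median. It lay within 1000 bp of 779 regions (10.0%) and within 5 kb of 40.6%, over 20 kb from 1771 (22.8%) and over 100 kb from 63. The same distance to the missing list was 4.30 kb at the median for regions of Tinaja and Surface only and 3.68 kb for regions of Pachon and Surface only, and 15.4% and 16.9% of them had a peak of the missing list within 1000 bp. Under a reciprocal overlap of 50%, which lets a Surface peak overlap a both-cave region, 37.1% had a Surface peak within 1000 bp.

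At the edge of the rule, the both-cave regions nearest to Surface were 9, 11, 12, 18 and 22 bp from a Surface peak, on chromosomes 20, 15, 4, 21 and 5. In all, 13 were within 50 bp. Just outside, the largest overlap of a Surface peak with a cave peak was taken in each region of all 3 forms. The smallest of these values was 15 bp, and in 5 such regions the value was up to 50 bp. These are small numbers beside the 7768 both-cave regions and the 32629 regions of all 3 forms.

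Distance to the nearest region open in all 3 forms is a measure that can be taken for every class held by 1 or 2 lists. Both-cave regions were 11.0 kb away at the median (quartiles 4.42 and 27.2 kb). Regions of Tinaja only and of Pachon only were at a like distance, 12.3 and 10.9 kb. The classes that held Surface were nearer, with medians of 6.11 kb for Tinaja and Surface only, 6.62 kb for Pachon and Surface only and 6.19 kb for Surface only. By these medians the classes split by the absence or presence of Surface, not by the number of lists. A region of all 3 forms holds a Surface peak by definition, and the classes without Surface were chosen for lacking one. The distance thus partly reuses the values of the rule, and the split is a description and not a finding. Of both-cave regions 2553 (32.9%) were over 20 kb from a region of all 3 forms, beside 28.4% of all regions held by 1 or 2 lists, and 537 (6.91%) were within 1000 bp of one, beside 9.62%. The other classes without Surface were alike, with 37.3% of Tinaja only and 33.7% of Pachon only over 20 kb away. Within 1000 bp were 5.76% of Tinaja only and 6.97% of Pachon only.

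In each of 4 width bins the classes that held Surface were nearer than those that did not. Among regions with at least 1000 bp in each of their lists, the median distance was 15.7 kb for both caves, 7.93 kb for Tinaja and Surface only, 11.6 kb for Pachon and Surface only and 10.2 kb for Surface only. Under 300 bp it was 10.2 kb for both caves, 6.01 kb for Tinaja and Surface only, 6.25 kb for Pachon and Surface only and 5.86 kb for Surface only. For Tinaja only and Pachon only the medians were 17.5 and 14 kb at 1000 bp and over, and 11.4 and 10.6 kb under 300 bp. Of both-cave regions over 20 kb from a region of all 3 forms, 151 of 2553 (5.91%) reached 1000 bp in both caves. The share was 30 of 537 (5.59%) up to 1 kb from one, 45 of 1679 (2.68%) over 1 and up to 5 kb, and 123 of 2999 (4.10%) over 5 and up to 20 kb, so it did not rise steadily with distance.

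**Figure D4:**
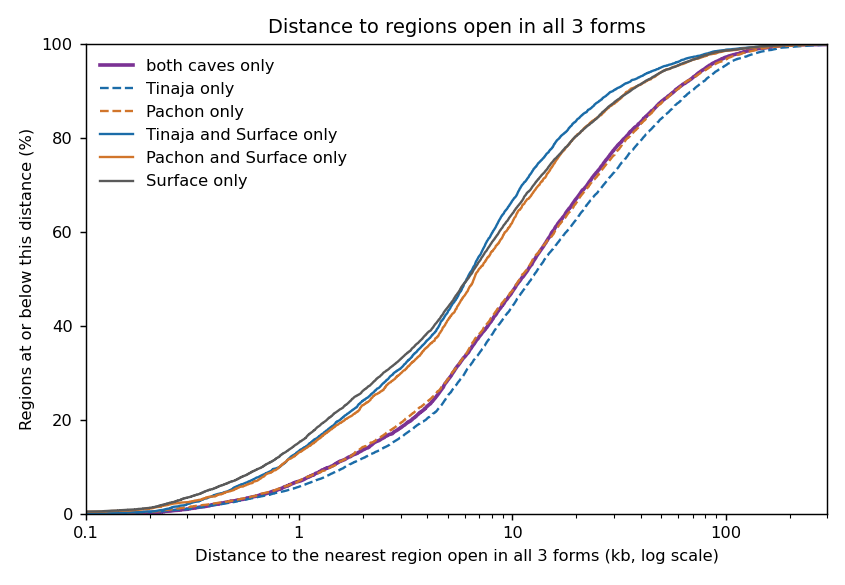
Cumulative percentage of regions (vertical axis) by distance to the nearest region open in all 3 forms (horizontal axis, kb, log scale), for each class held by 1 or 2 lists. The 3 classes without Surface run together on the right, with medians of 10.9 to 12.3 kb, and the 3 classes with Surface on the left, with medians of 6.11 to 6.62 kb.

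The farthest both-cave region from any Surface peak lay on chromosome 24 at 31736656 to 31737274, with 619 bp in Tinaja and 446 bp in Pachon, and the nearest Surface peak was 213.1 kb away. The next was on chromosome 6 at 29175068 to 29175568, with 487 bp in Tinaja and 418 bp in Pachon, at 197.1 kb. These and the other 8 of the farthest 10 were narrow, covering 226 to 577 bp in the lower cave list. They were 168.2 to 213.1 kb from Surface.

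Chromosome 19 held 3 of these 10 within 59.1 kb. They lay at 23363069 to 23363437, at 23420317 to 23420720 and at 23421423 to 23422170, and the distances to Surface were 170.3, 174.2 and 172.8 kb. Chromosome 10 held another pair, at 22441388 to 22441730 and at 26070582 to 26071378, at 171.3 and 185.7 kb from Surface. The others lay on chromosome 17 at 15758080 to 15758720, chromosome 3 at 46730977 to 46731428 and chromosome 4 at 1340839 to 1341202. Of these 10 regions, 9 had a Tinaja-only region as a neighbour on at least 1 side. The 10 were chosen for their distance from Surface, which leaves mainly classes without Surface as neighbours. Among the neighbours of all both-cave regions 20.1% were Tinaja only. That share is counted per side and not per region, so it cannot be set directly against the 9 of 10.

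The 3 classes without Surface were more frequent next to both-cave regions than over all chromosomal regions. Both-cave regions were chosen for lacking Surface, so this is a description. Of the union regions next to a both-cave region, 15.5% were both-cave regions themselves, 20.1% were Tinaja only, 9.20% Pachon only, 10.6% Surface only and 35.9% open in all 3 forms. Over all chromosomal regions these classes made up 10.3%, 15.8%, 7.45%, 12.9% and 43.3% in the same order. Next to regions of Tinaja and Surface only, 8.49% were both-cave regions and 46.1% were open in all 3 forms. The other classes without Surface were like the both-cave regions. Next to Tinaja-only regions 13.2% were both-cave regions and 33.7% open in all 3 forms, and next to Pachon-only regions 12.7% and 36.6%. Every class was more frequent next to itself than over all regions, as with Surface only at 17.7%, so this was not particular to both-cave regions. Neighbouring regions share their stretch of chromosome, so these shares are not independent counts.

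Most both-cave regions were nonetheless single. Of the 7768, 5610 (72.2%) had no both-cave region next to them, 1496 (19.3%) stood in pairs, and 162 runs held 3, 30 runs held 4, 10 runs held 5 and 1 run held 6. The share next to their own class was 27.8% for both-cave regions, 15.7% for Tinaja and Surface only and 10.6% for Pachon and Surface only. It was 20.7% for Pachon only, 31.4% for Surface only and 41.1% for Tinaja only. Across these classes the share rose with the number of regions in the class. The run of 6 lay on chromosome 6 at 20232650 to 20288976, over 56.3 kb, with peaks of 285 to 843 bp in Tinaja and 239 to 626 bp in Pachon. Among the runs of 5, the longest spanned 250.9 kb of chromosome 3 at 46579681 to 46830546, inside a stretch of 354.9 kb with no Surface peak. The next 3 in length lay on chromosome 3 at 68358496 to 68457150, on chromosome 14 at 3911302 to 3972325 and on chromosome 15 at 15532347 to 15587404.

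Stretches between consecutive Surface peaks give another view of the same grouping. Of 50899 such stretches, 5935 held a both-cave region, 1273 held at least 2 and 35 held at least 5, and 3096 regions (39.9%) shared their stretch with another. Stretches that held a both-cave region had a median length of 29.9 kb, and those without one 6.43 kb. A long stretch has room for more regions of any kind. The stretch with the most lay on chromosome 3 at 68353035 to 68529031, where 176.0 kb without a Surface peak held 8 both-cave regions and 3 Tinaja-only regions, with 11 Tinaja peaks and 8 Pachon peaks in all. On the same chromosome, 73219914 to 73385885 held 7, with 10 Tinaja and 8 Pachon peaks. On chromosome 6, 16656345 to 16812372 held 7, with 10 Tinaja and 9 Pachon peaks.

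Both-cave regions occurred on every chromosome in similar proportion. They made up 8.67% (chromosome 22) to 11.9% (chromosome 10) of the regions of a chromosome, with a median of 10.4%. Their density, over the length up to the last peak, was 6.61 to 10.3 per Mb, and 8.35 per Mb over all chromosomes. The median of the lower covered length varied little, from 332 bp on chromosome 17 to 372 bp on chromosome 24. The median distance to Surface ranged from 5.36 kb on chromosome 20 to 11.2 kb on chromosome 21, where all regions together were also sparsest, with 60.0 per Mb against a median of 80.8 per Mb over chromosomes.

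Regions of at least 1000 bp in both caves numbered 4 on chromosome 4 and 35 on chromosome 3, with a median of 14 per chromosome. Position along the chromosome made little difference. When each chromosome was divided into 10 equal parts, both-cave regions were 9.71% to 11.0% of the regions in each. They were 9.99% of the regions in the outermost parts and 10.4% in the others.

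**Figure D5:**
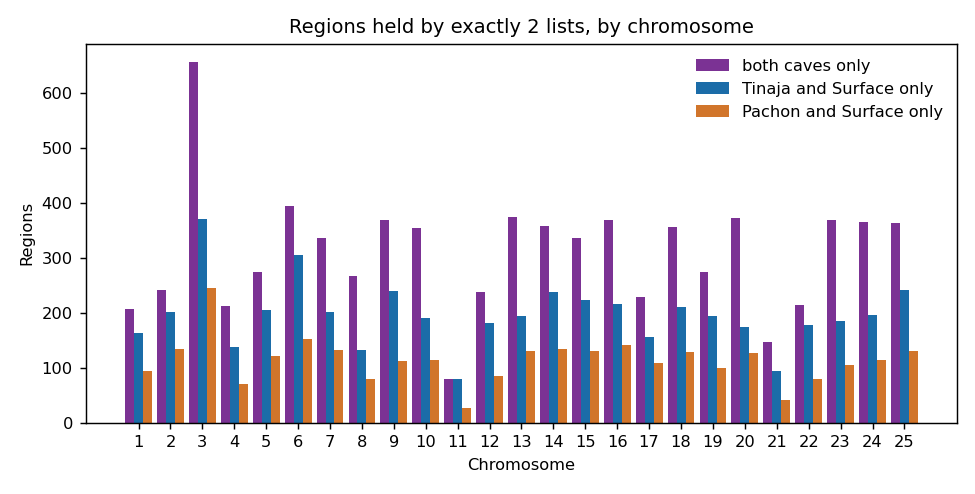
Number of regions (vertical axis, from 0) held by exactly 2 lists on each of the 25 chromosomes (horizontal axis), with 1 bar per class. Both-cave regions number 79 on chromosome 11 to 657 on chromosome 3 and exceed the other classes on 24 chromosomes.

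At a finer scale the share varied more. Of 938 windows of 1 Mb with at least 20 regions, 935 held a both-cave region, the median share was 10.1% (quartiles 7.23% and 13.6%), and in 46 windows the share was at least 20%. The highest share was on chromosome 23 from 8000001 to 9000000, where 16 of 51 regions (31.4%) were of both caves only. That window held the wide region at 8298406 to 8301851, and 41 of its regions had a Tinaja peak, 33 a Pachon peak and 16 a Surface peak. It was followed by chromosome 9 from 38000001 to 39000000 (15 of 51 regions, 29.4%) and chromosome 23 from 20000001 to 21000000 (19 of 65, 29.2%). On chromosome 3 the windows from 68000001 to 69000000 (14 of 48, 29.2%) and from 73000001 to 74000000 (24 of 89, 27.0%) took in the Surface-free stretches named above. Windows with few regions vary most by counting alone, and no test of their excess was made.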

How the data were processed

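Liver chromatin was profiled by ATAC-seq with paired ends. Tools named in the submitters' processing notes are MACS2, SAMtools, Bowtie2 and bcl2fastq 2.20. Not given in the sources used here are their settings, filters, any shift for the Tn5 offset, thresholds, the genome build and whether replicates were pooled. The deposited lists give sequence, start and end of each peak. The score column deposited by the authors is 0 for every peak, so peaks could not be ranked or filtered by strength.

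Peaks were merged when they overlapped or touched, distances were taken edge to edge, and covered lengths were summed per list. The work was done in Python 3.11.15 with scipy 1.17.1, pandas 2.3.3, numpy 2.4.6 and matplotlib 3.10.9, with functions tested on simulated data. The gene table at hand is for AstMex3, and on 4 of 25 chromosomes peaks lay beyond its last gene, so no gene or sequence was assigned and the planned gene lists were not run. Regions named are the 20 widest by the lower covered length, the 10 farthest from Surface, and 5 each of the longest runs, densest windows, regions with most peaks and closest matches; stretches between Surface peaks and unequal pairs were added after values were seen. The regions and lists were chosen with earlier results of these data known.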

Additional observations from a re-analysis of the deposited data

How the results depend on the processing

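The 15 summary values were recomputed under 8 alternatives, except in 10 cases where an alternative fixes the value or leaves it as it is. Of the 15, 5 values (distances to regions of all 3 forms and shares lacking a list at 1000 bp or more) were added after the data were seen. Of 110 recomputed values, 63 stayed within the interval of the main value (for counts, within 1.5 times it) and 47 moved out of it. Only the log2 ratio of widths can change sign, and it did not where it was recomputed. Not merging touching peaks changed none of these values.

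In the main setting both-cave regions were 50% of the regions held by exactly 2 lists, and their median length was 520.5 bp. Under a reciprocal overlap of 50%, the share was 54.1%. Median covered length was 469 bp in Tinaja and 441 bp in Pachon with a log2 ratio of 0.06, 37.1% had a Surface peak within 1000 bp, and 23.6% were next to another. The median distance to regions of all 3 forms was 10.5 kb, against 7.10 kb for Tinaja and Surface only. The shares lacking the third list at 1000 bp or more were 14.0% for cave pairs, 7.47% for Tinaja and Surface and 5.13% for Pachon and Surface. With 500 bp around each midpoint the share was 51.0%, 17.0% had Surface within 1000 bp, 93.9% of pairs overlapped by 50% and 26.4% were next to another. Merging peaks within 200 bp left 9.35% within 1000 bp of Surface.

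With peaks of at least 300 bp the share was 49.2%, the median length 601 bp, covered length 519 bp in Tinaja and 468 bp in Pachon with a log2 ratio of 0.08. Then 8.21% had Surface within 1000 bp, 88.6% overlapped by 50%, 28.8% were next to another, the distances were 13.1 kb and 7.22 kb, and 7.17% of wide cave pairs lacked Surface. With the 50115 widest chromosomal peaks of each list, a cut that drops no Pachon peak, the share was 45.8% and the median length 560 bp. Covered length was then 489 bp in Tinaja and 422 bp in Pachon with a log2 ratio of 0.17. In this setting 9.25% had Surface within 1000 bp, and the distances were 12.0 and 6.66 kb. Without regions that had the missing list within 1000 bp the share was 51.7%, 29.6% were next to another and the distances were 12.6 and 7.19 kb. With scaffolds there were 11715 regions, a median length of 532 bp, 456 bp in Tinaja and 407 bp in Pachon, 83.2% overlapping by 50%, and 6.80%, 2.74% and 2.59% of wide pairs lacking the third list. The causes were not tested, beyond what follows from dropping peaks or adding scaffolds.

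Of the 20 widest regions, 19 stayed both-cave regions under the reciprocal overlap and 17 with 500 bp peaks, and all 20 under the other 6 alternatives. Of the 10 farthest from Surface, 7 stayed with peaks of at least 300 bp and 9 each under the reciprocal overlap and with equal numbers of widest peaks. Of the 5 with the most peaks, 2 stayed under the reciprocal overlap and 4 when regions with the missing list within 1000 bp were left out, and the 5 closest matches stayed under all 8. No replicate could be left out, since each form has 1 list. No paired analysis was possible because the lists carry no replicates. Depth is unknown, which limits what the absence of a narrow Surface peak can show.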

Other observations

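Counts of both-cave regions by distance to the nearest region of all 3 forms did not decline evenly. There were 537 within the first kb, 520 from 1 to 2 kb, 365 from 2 to 3 kb and 359 from 3 to 4 kb, then 435 from 4 to 5 kb and 384 from 5 to 6 kb. From 3 to 4 kb and from 4 to 5 kb the counts were 486 and 585 for Tinaja only, 259 and 267 for Pachon only, 293 and 303 for Tinaja and Surface only, 159 and 164 for Pachon and Surface only, and 538 and 537 for Surface only. No test was made of these counts.

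The 14 both-cave regions with identical edges in both lists were mostly narrow. Of the 14, those on chromosomes 12, 15 and 25 at 9438861 to 9439152, 25138757 to 25139048 and 8470984 to 8471275 were all 292 bp long, and those on chromosomes 24 and 6 at 1867507 to 1867916 and 46798702 to 46799111 were both 410 bp long. These were singled out after their values were seen.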
